A study of Rattus norvegicus with 28 samples.

Results

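The genes described here had more RNA in samples exposed to spinal cord than in cultured cells, and levels within 2-fold of each other whether or not the cord was labelled as injured. They are 150 of the 32545 genes in the table. They were chosen by their measured levels at weeks 3 and 4 and in culture. Levels are library-scaled counts (CPM), the count of a gene divided by its library's total and multiplied by 1000000. For each group the mean CPM was taken and 1 was added. A gene qualified when its 4 exposed groups (injured and uninjured cord, weeks 3 and 4) differed by less than 2-fold from lowest to highest, and when the lowest was at least 10. Of 7478 genes past that floor, 4426 lay inside the 2-fold band. The 150 with the largest ratio of the lowest exposed group to culture were taken.

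All samples are labelled as neural progenitor cells of the rat. The 28 libraries form 7 groups of 4: cells in culture, cells exposed to spinal cord for which no injury is labelled (called uninjured here), and cells exposed to spinal cord injury, the exposed ones labelled 2, 3 or 4 weeks. The labels give no strain, age, injury type, way of exposure or starting point of the weeks, and do not say whether cells were separated from cord tissue or how many animals or cultures stand behind a group. The study's stated subject is transplantation of these cells into the injured cord of rodents. In bulk RNA of this kind, more cells of a type and more RNA per cell cannot be told apart, and RNA of host tissue cannot be told apart from RNA of the labelled cells. P-values measure only the spread between libraries, which may be technical.

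Neural progenitor cells are dividing precursors that can form neurons, astrocytes and oligodendrocytes. In culture they are usually held as precursors by growth factors, and in the cord they meet mature neurons, myelin, glia and vessels. Injury adds a cellular reaction of microglia, blood-derived macrophages and astrocytes, together with loss of neurons and myelin.

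The deposited table lists genes by Ensembl identifier, and 0 of the 32545 identifiers were paired with a symbol in the reference tables used here. No member can therefore be named by function, no marker list could be applied to check the cell type label, and no promoter or protein sequence is given. Of the members, 4 are given by identifier and others by their rank in the ratio to culture.

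Libraries of culture and of weeks 3 and 4 held 2605188 to 6908508 counts. The 8 week 2 libraries, which the rule did not use, held 84532 to 446331. The library injured week 3 replicate 3 was left out by the rule. It had 0 counts for 51 of the 150 members (34%), and for 1197 of the 4426 genes inside the band (27.04%), while its 3 companions had no member at 0. The members at 0 in it had 23 to 6382 counts in each companion. The 99 members it did hold stood above every companion in 98 cases, with a median ratio of 1.85 to the companions' mean. Values of injured week 3 below are from the other 3 libraries unless stated.

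The module was a modest one in size of change. The ratio of the lowest exposed group to culture had a median of 1.85 over the 150 members, with quartiles of 1.65 and 2.20. It was at least 2 for 56 members, at least 3 for 12 and at least 4 for 4, and its highest value was 7.71. The 3 members just inside the limit of 150 had ratios of 1.58, 1.57 and 1.57, and the 3 genes just outside had 1.57, 1.56 and 1.56, so the limit cuts through a continuous series.

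Large differences from culture seldom lay inside the 2-fold band. Among all 7478 genes past the floor, 468 had a lowest exposed group at or above the ratio of the last member, and 150 of them (32.1%) lay inside the band, against 59.2% of all genes past the floor. Of 276 genes at least 2-fold above culture in all 4 groups, 56 lay inside it. Of 53 genes at least 4-fold above, 4 did, and of 8 genes at least 8-fold above, 0 did. Most genes inside the band were lower in at least 1 exposed group than in culture: their median ratio was 0.798, and 1083 of 4426 (24.5%) had a ratio above 1.

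Members ranged widely in level. Culture means ran from 2.74 to 373 CPM with a median of 14.7, and 52 members had under 10 CPM there. The lowest exposed group plus 1 was under 20 CPM for 47 members and at least 100 CPM for 19. Every member was detected in each of the 19 libraries that the rule used, with at least 17 counts in each exposed library and at least 11 in each culture library.

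As a share of all counts, the 150 members together made up 0.432% to 0.477% of each culture library. At week 3 their share was 1.20% to 1.32% with injury and 1.47% to 1.71% without. At week 4 it was 1.258% to 1.51% with injury and 1.36% to 1.62% without. Each culture library was thus below each exposed library, as the choice of members favours. The members of ranks 1 and 5 carried much of this sum, 13.1% of it in culture and 24.9% to 30.9% in the 4 exposed groups.

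The median member gives a view that single abundant genes do not set. It stood at 14.3 ± 0.616 CPM in culture (SD, n = 4), 34.4 ± 2.18 CPM in injured week 3 (SD, n = 3), 41.4 ± 4.29 CPM in uninjured week 3 (SD, n = 4), 34.9 ± 4.30 CPM in injured week 4 (SD, n = 4) and 36.4 ± 1.25 CPM in uninjured week 4 (SD, n = 4). Injured week 3 libraries, at 32.8, 33.4 and 36.9 CPM, lay just below the 4 uninjured ones, at 36.9 to 46.0 CPM. At week 4 the injured libraries, at 28.8, 35.5, 36.6 and 38.7 CPM, enclosed the uninjured ones, at 35.4 to 38.2 CPM.

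**Figure D1:**
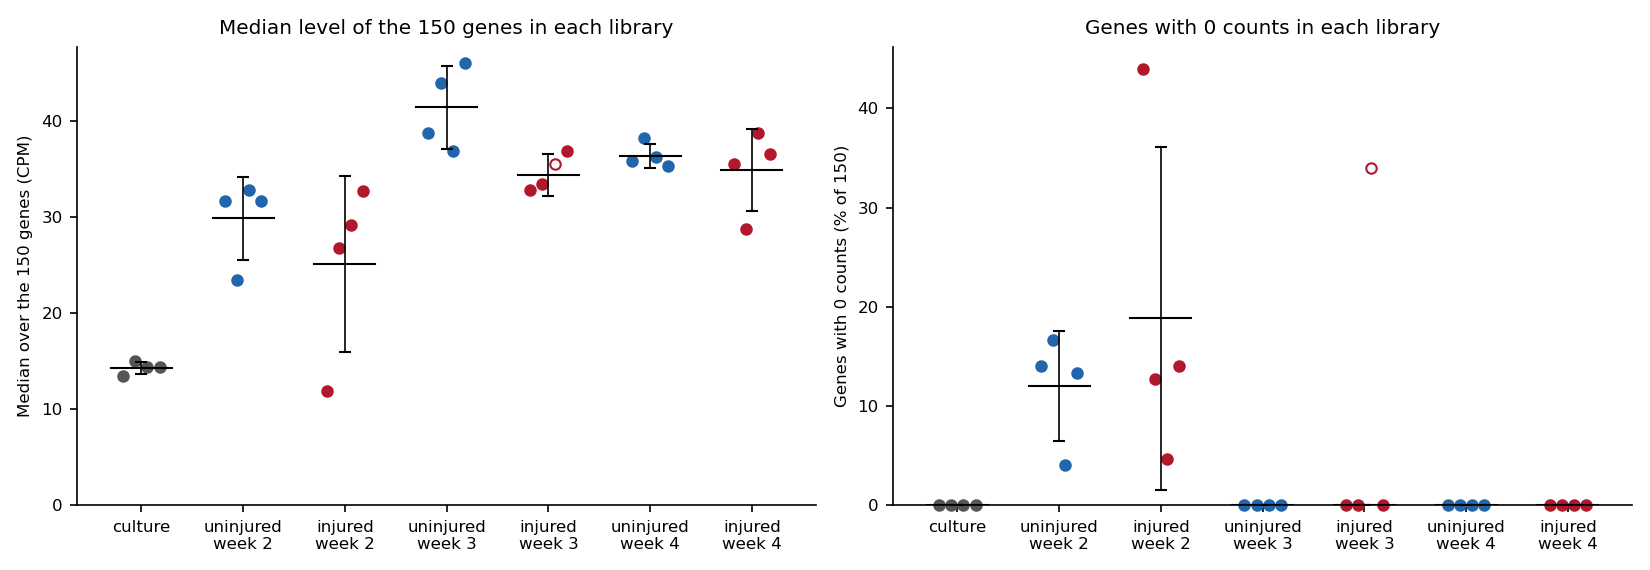
The left panel plots the median CPM of the 150 members in each of the 28 libraries, by group, and the right panel the percent of members with 0 counts. Points are libraries, lines the group mean and bars 1 SD; the open circle is injured week 3 replicate 3, which is left out of the mean. All culture medians lie at 13.5 to 14.98 CPM, and the week 2 library with the fewest counts, at 11.8 CPM, is the one exposed library below them.

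Against culture, the median member was 2.17-fold higher in injured week 3, 2.69-fold in uninjured week 3, 2.16-fold in injured week 4 and 2.35-fold in uninjured week 4. These 4 folds share the same culture libraries, and all of them entered the choice of members, so they are a description. In all but 25 members the 15 exposed libraries lay above all 4 culture libraries, as in 6.39% of the 4426 genes inside the band. In those 25 members the lowest exposed library was injured week 4 replicate 2 in 13, an injured week 3 library in 5 and an uninjured library in 7. Without injured week 4 replicate 2, the number without overlap was 137. That library had the lowest value of the 15 in 48 of the 150 members. No share of the genes inside the band was computed for this count or for the 137.

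Scaling moves these folds. With TMM-scaled totals, which correct for composition, the medians were 1.99, 2.38, 2.20 and 2.16 in the same order. All 150 members stayed above culture in each of the 4 groups. Their choice at a ratio of 1.57 or more favours this, so it is no check on them. Under TMM the order of uninjured and injured week 4 turned.

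**Figure D2:**
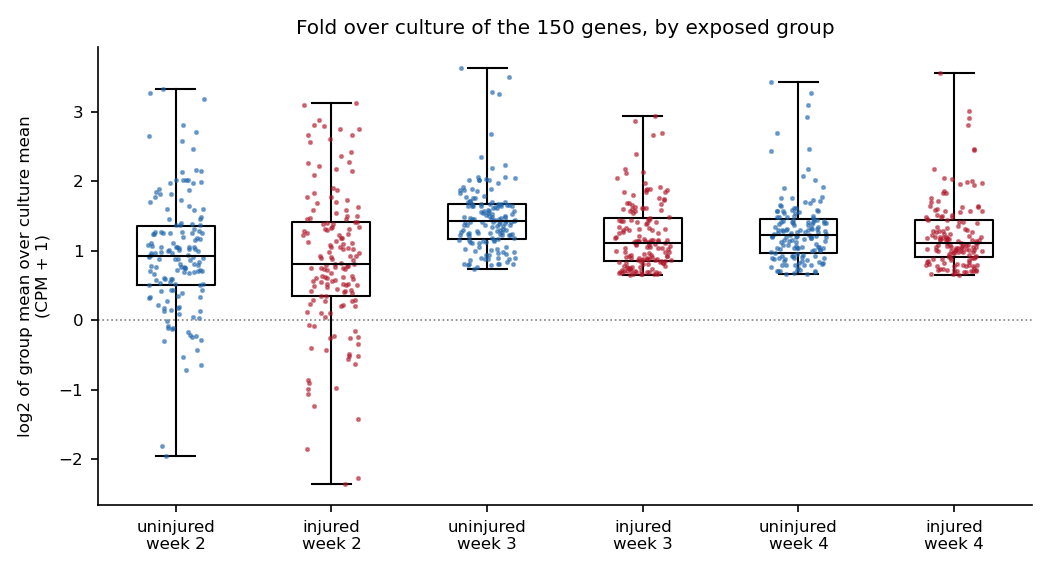
The plot shows log2 of the group mean over the culture mean (CPM plus 1) for each of the 150 members (points) in the 6 exposed groups, with boxes at the quartiles, lines at the median and whiskers to the extremes. Groups of weeks 3 and 4 start above 0 by the choice of members; the week 2 groups, which the rule did not use, spread on both sides of 0.

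The member with the largest ratio to culture was ENSRNOG00000008015. Its 4 culture libraries held 234, 188, 214 and 259 CPM. In uninjured cord it stood at 2052, 2717, 2912 and 2519 CPM at week 3, and at 2099, 3019, 1830 and 2791 CPM at week 4. In injured cord it stood at 1510, 1856 and 1833 CPM at week 3, and at 2697, 2837, 2298 and 2822 CPM at week 4. Each of these 15 exposed libraries was above each culture library. Injured and uninjured libraries did not overlap at week 3, where the injured mean was 0.680 of the uninjured one, and overlapped at week 4, where it was 1.09 of it. Injured week 3 replicate 3 had 0 counts of this gene.

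The member ranked next was ENSRNOG00000004147, at 60.6, 72.3, 69.9 and 81.8 CPM in culture. It stood at 817, 684, 591 and 727 CPM in uninjured week 3 and at 735, 749, 749 and 559 CPM in uninjured week 4. In injured cord it stood at 451, 400 and 556 CPM at week 3, and at 608, 377, 725 and 613 CPM at week 4. The exposed means were 6.51-fold to 9.79-fold above culture. Week 3 libraries did not overlap between injured and uninjured cord, and week 4 libraries did. In injured week 3 replicate 3 it stood at 717 CPM, above its 3 companions.

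Below these, the ratio to culture was 6.34 for the member of rank 3, 5.53 for that of rank 4 and 3.71 for that of rank 5. The member of rank 4 was scarce, with 23.8 CPM in its lowest exposed group and 4.30 CPM in culture (each plus 1). That of rank 5 was abundant, with 1390 and 374 CPM. Large ratios thus occurred at both ends of the range of levels.

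The rule bounds the difference between injured and uninjured cord but does not require that there be none. Over the 150 members the largest of the 4 exposed means was 1.53 times the smallest in the median, from 1.08 to 1.998 times. It was under 1.5 times for 66 members. The members are therefore bounded in their difference with injury, and not shown to be unaffected by it.

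At week 3 the median member was lower in injured than in uninjured cord. The injured to uninjured ratio had a median of 0.809 (log2 -0.30, quartiles -0.57 and 0.02), and 74% of members were lower in injured cord, 39 of 150 being higher. Over the 4426 genes inside the band the median was 1.10, a log2 value of 0.14, and 39.0% were lower. All 3 injured libraries lay below all 4 uninjured ones in 52 members, as in 12% of the genes inside the band, and above them in 12 members, as in 26.5% of those genes. The other 86 members overlapped. The rule used these libraries, so nothing is read from these counts. Under TMM 49 members lay below and 14 above, with a median log2 ratio of -0.24 against 0.19 over the genes inside the band. Under RLE 36 lay below and 16 above, with a median of -0.15 against 0.28. That member median is closer to 0 than -0.30 by more than 0.071, the SD of the 3 injured libraries' medians. The difference between the medians of members and of those genes was -0.44 as first scaled, -0.43 under TMM and -0.43 under RLE. Scaling changes each library's total for all genes alike and so moves both medians by nearly the same amount. This difference could therefore hardly change, and nothing is read from its constancy. With injured week 3 replicate 3 added, 16 members lay below and 7 above. Shares of the genes inside the band without overlap were not computed under these other settings.

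At week 4 the median member was near equality between injured and uninjured cord. The median ratio was 0.974 (log2 -0.04, quartiles -0.34 and 0.18), 83 members being lower and 67 higher in injured cord. The genes inside the band had a median of 0.954, and 57.9% were lower. Injured libraries lay below all uninjured ones in 18 members, as in 12.8% of the genes inside the band, and above them in 9 members, as in 6.76%. The remaining members overlapped. The side of this small difference depended on scaling. TMM gave 12 below and 17 above, with a median log2 ratio of 0.10 against 0.08 over the genes inside the band. RLE gave 4 below and 24 above, with 0.15 against 0.14. This side also depended on injured week 4 replicate 2, without which the median log2 ratio was 0.07, with 24 members below and 22 above. Shares of the genes inside the band without overlap were not computed under these other settings.

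Both weeks together are given as a further description. Injured libraries lay below uninjured ones at both weeks in 9 members, as in 3.23% of the genes inside the band, and above at both in 2 members, as in 4.07%. At both weeks 71 members overlapped, as did 50.6% of the genes inside the band. Taken by means alone, 68 members were lower in injured cord at both weeks (29.5% of the genes inside the band) and 24 were higher at both (32.6%). Another 43 were lower at week 3 and higher at week 4 (9.47% of the genes inside the band), and 15 the reverse (28.4%). Within 1.5-fold at both weeks were 91 members, against 67.6% of the genes inside the band. Past 1.5-fold at both were 3 members on the lower side (1.31% of those genes) and 0 on the higher side (1.02%).

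**Figure D3:**
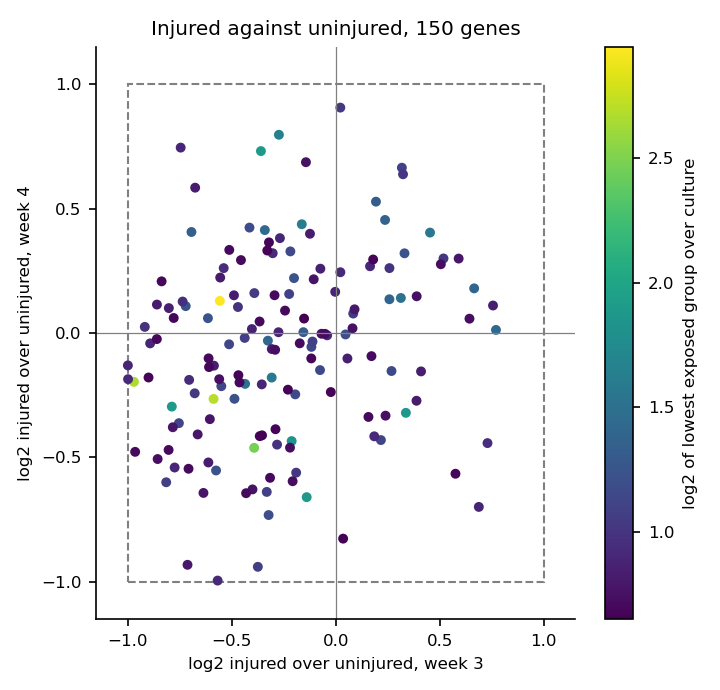
Each point is 1 of the 150 members, with log2 of injured over uninjured group means (CPM plus 1) at week 3 on the x axis and at week 4 on the y axis. The dashed square marks the 2-fold limits that the rule sets, and colour gives log2 of the lowest exposed group over culture. Points spread mostly to the left of 0 on the x axis (74% of members) and on both sides of 0 on the y axis (83 below).

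The members with the lowest injured to uninjured ratio over both weeks show what the 2-fold limit still admits. ENSRNOG00000014264 stood at 75.2, 74.1, 77.2 and 71.4 CPM in uninjured week 3 and at 51.9, 36.6 and 46.7 CPM in injured week 3. At week 4 it stood at 95.8, 77.8, 81.8 and 58.7 CPM in uninjured and at 47.9, 28.01, 45.4 and 41.3 CPM in injured cord. The injured libraries lay below the uninjured ones at both weeks, with ratios of 0.610 and 0.524. Culture, at 19.5, 22.8, 23.0 and 26.8 CPM, lay below all of them, so the mean in uninjured cord was 3.14-fold and 3.31-fold above culture and that in injured cord 1.92-fold and 1.74-fold.

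ENSRNOG00000008414 was among the abundant members. It stood at 695, 626, 568 and 583 CPM in uninjured week 3 and at 374, 534 and 342 CPM in injured week 3. At week 4 it stood at 442, 659, 689 and 1039 CPM in uninjured and at 325, 458, 297 and 337 CPM in injured cord. Libraries did not overlap at week 3 and overlapped at week 4, where the ratio of 0.502 was just inside the limit and the uninjured libraries spread widely. Culture stood at 169, 185, 202 and 196 CPM. Injured week 3 replicate 3 had 0 counts.

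**Figure D4:**
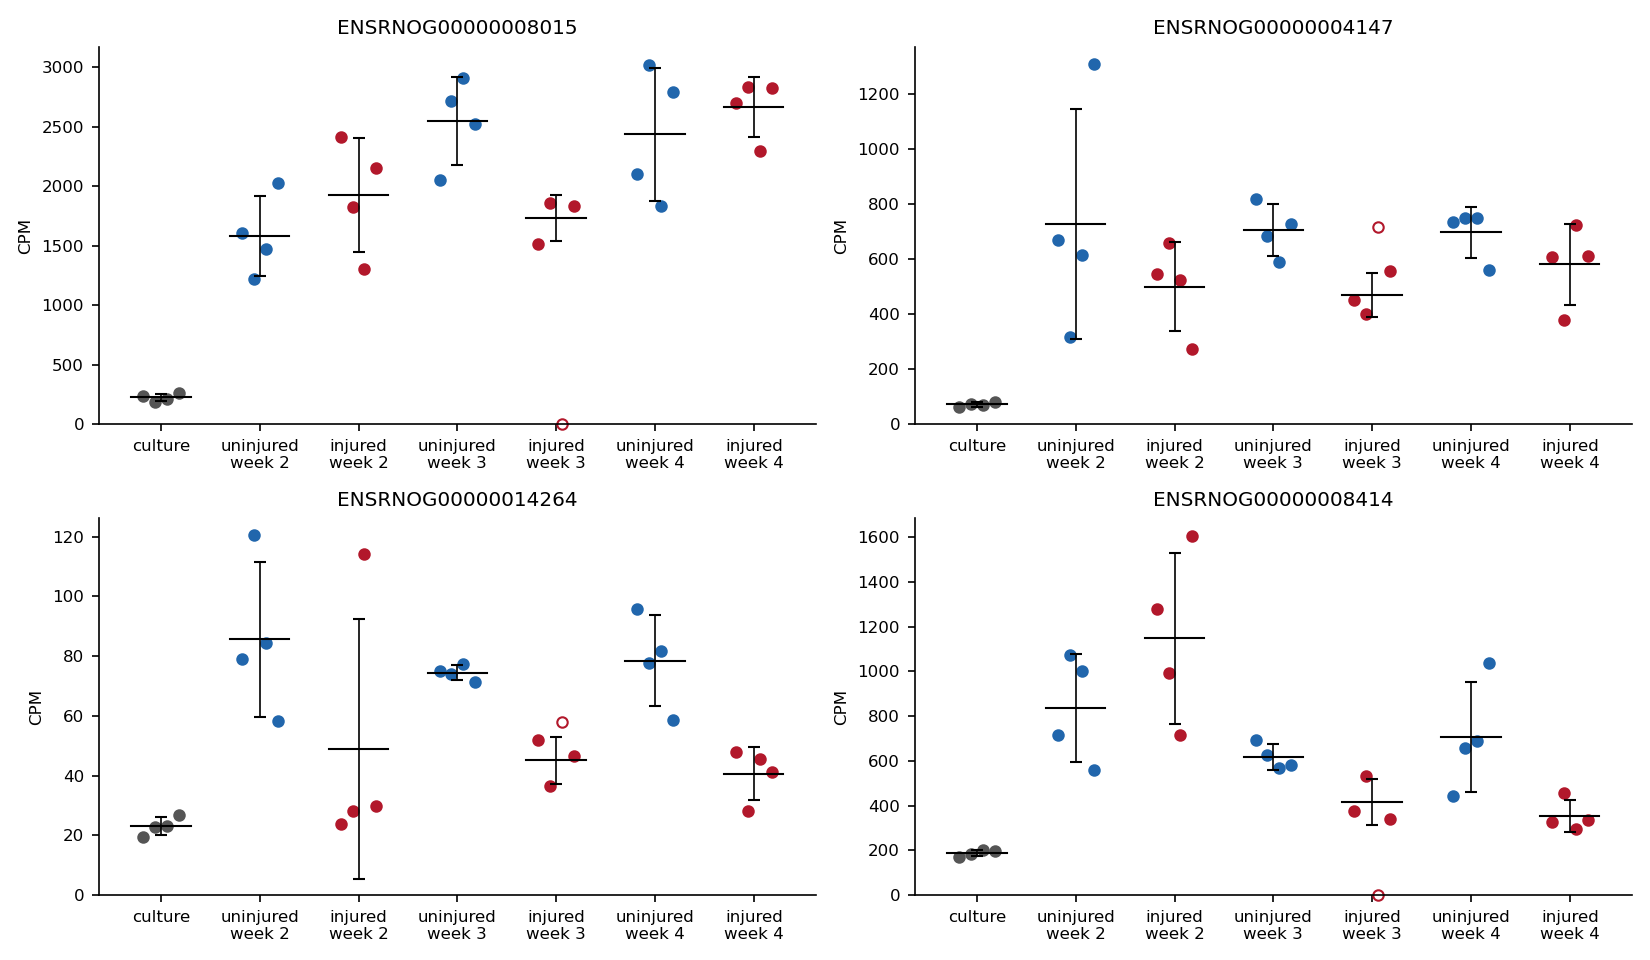
CPM of the 4 members given by identifier in all 28 libraries, by group, on linear axes from 0. Points are libraries, lines the mean and bars 1 SD; the open circle is injured week 3 replicate 3, left out of the mean. The 2 upper genes have the largest ratios to culture, and the 2 lower genes the lowest injured to uninjured ratios, with all injured week 3 means below the uninjured ones.

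Between weeks 3 and 4 the median member was near equality in injured cord and slightly lower at week 4 in uninjured cord. In injured cord the week 4 to week 3 ratio had a median of 1.03 (log2 0.05), while that of the genes inside the band was 0.801. All week 4 libraries lay above all week 3 libraries in 17 members, as in 4.81% of the genes inside the band, and below in 14 members, as in 36.3%. In uninjured cord the median was 0.886 (log2 -0.18) against 0.934, with 1 member without overlap above (3.1% of the genes inside the band) and 21 below (8.83%). The rule used these libraries too, and no test is attached.

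The group with the highest or lowest mean is a further description. Uninjured week 3 was the highest of the 4 exposed groups in 72 members and injured week 3 in 33, where 27.5% and 51.2% of the genes inside the band had those groups highest. Injured week 3 was the lowest in 67 members (13.5% of the genes inside the band), injured week 4 in 42 (42.8%), uninjured week 4 in 37 (25.2%) and uninjured week 3 in 4 (18.4%). As the members were ranked on their lowest group, these counts describe the choice as well as the genes.

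Members spread between replicates about as much as all genes inside the band at weeks 3 and 4, and more in culture. The median coefficient of variation (SD over mean) was 14.5% in injured week 3, 16.8% in uninjured week 3, 17.9% in injured week 4 and 17.6% in uninjured week 4. The corresponding values over the 4426 genes were 14.2%, 16.2%, 17.8% and 15.2%. In culture it was 12.7% for members and 7.94% for the 4426 genes. The members were chosen in part for low levels in culture, and the sets were not matched for level.

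The week 2 libraries took no part in the choice and show the same genes in other samples. They are shallow: a member had a median of 33 counts over all 4 uninjured libraries and 36.5 over all 4 injured ones. Members with 0 counts numbered 21, 25, 6 and 20 in the uninjured libraries and 66, 19, 7 and 21 in the injured ones. Injured replicate 1, with 84532 counts, was the library with 66. Over the whole injured group 1 member had 0 counts, which allows up to 2.46 CPM (3 counts over the group, counting error only).

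Most members were above culture at week 2 as well. The 150 members made up 1.05% to 1.40% of the uninjured and 1.21% to 1.54% of the injured week 2 libraries, each above the 0.432% to 0.477% of culture. The group mean was above culture for 88.7% of members in uninjured cord, against 32.4% of the genes inside the band, and for 83.3% in injured cord, against 37.3%. Both week 2 means were above culture for 76.7% of members, against 20.4% of the genes inside the band, and both were below for 7 members. The median fold was 1.91 in uninjured and 1.76 in injured cord, and under TMM it was 1.66 and 1.43. At least 2-fold above culture were 67 members in uninjured cord (4.56% of the genes inside the band) and 64 in injured cord (6.62%). All 8 week 2 libraries lay above all 4 culture libraries in 17 members, as in 1.02% of the genes inside the band. The culture libraries entered the choice of members, so these shares are not independent of it.

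In a fit of the 12 culture and week 2 libraries, 81 of the 150 members had enough counts to be tested (edgeR quasi-likelihood test, called at a Benjamini-Hochberg adjusted p under 0.05 over 7181 genes). Without injury 28 were called higher than culture and 0 lower, where 17.2% of all genes tested were called higher. With injury 29 were called higher and 0 lower, where 17.1% of all genes were called higher. Over the 81 members the median log2 fold changes were 1.20 and 1.12, against -0.09 and -0.13 over all genes tested. The filter keeps genes with more counts, and a member scarce in culture passes it through its week 2 values. The 81 therefore do not stand for all 150. Their medians may be raised by this selection, which was not tested apart from other effects of the filter. Without the filter all 150 members were tested, with medians of 0.73 and 0.62 against -0.37 and -0.59 over 21902 genes. Without any 1 of the 4 culture libraries, 99 members were tested. Then 19 to 20 of them were called higher in uninjured cord, 19.2% to 20.2% against 13.7% to 14.3% of all genes tested. In injured cord 16 to 18 were called, 16.2% to 18.2% against 13.7% to 14.2%, so that the members' share was near that of all genes. The rule used the same culture libraries, so these calls describe the members and support nothing about them.

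ENSRNOG00000008015 stood at 1603, 1215, 1475 and 2025 CPM in uninjured and at 2413, 1827, 1302 and 2154 CPM in injured week 2, again well above culture. Over culture its fitted log2 difference was 2.95 ± 0.23 (SE, edgeR) in uninjured cord and 3.06 ± 0.23 in injured cord. Each SE of an edgeR fit here is approximate. It was computed as the absolute log2 difference over the square root of the test's F statistic, as edgeR reports none. The gene was chosen by its ratio to these culture libraries, as were all members, so no p-value is attached to such differences. ENSRNOG00000004147 differed from culture by 3.45 ± 0.33 in log2 (SE, edgeR) in uninjured cord and by 2.78 ± 0.32 in injured cord. Its week 2 libraries ran from 318 to 1309 CPM in uninjured and from 274 to 658 CPM in injured cord.

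ENSRNOG00000008414 had its highest group means at week 2. It stood at 717, 1075, 1002 and 560 CPM in uninjured and at 1278, 991, 717 and 1606 CPM in injured week 2, so that all 4 injured week 2 libraries were above the 7 injured libraries of weeks 3 and 4. Over culture it differed by 2.36 ± 0.29 in log2 (SE, edgeR) in uninjured cord and by 2.59 ± 0.29 in injured cord. ENSRNOG00000014264 stood at 79.1, 120.5, 84.3 and 58.4 CPM in uninjured week 2. In injured week 2 it stood at 23.7, 28.2, 114.3 and 29.7 CPM, on 2, 10, 51 and 10 counts, so that 1 library lay far above the other 3. The difference from culture was 2.10 ± 0.54 in log2 (SE, edgeR) in uninjured and 1.21 ± 0.54 in injured cord. Injured and uninjured week 2 were compared directly for this gene in a fit of their 8 libraries, at -0.92 ± 0.65 (SE; edgeR, adjusted p = 1.0).

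Week 2 levels were near, and in the median below, those of the later weeks. The later groups entered the choice of members and the week 2 groups did not, which favours such a difference. The genes inside the band were also lower at week 2. Their median fold over culture was 0.786 in uninjured and 0.827 in injured week 2, against 0.882 to 1.09 in the 4 later groups. Nothing is therefore read from the members' lower week 2 level. Against the geometric mean of the 4 later groups, the week 2 mean had a median ratio of 0.828 in uninjured cord (quartiles 0.621 and 1.07) and 0.761 in injured cord (quartiles 0.541 and 1.10). All but 25 members in uninjured and all but 39 in injured week 2 lay within 2-fold of the later level. Of the members with at least 50 counts over the week 2 group, 52 of 53 did in uninjured and 50 of 58 in injured cord. Shares of the genes inside the band were not computed for these counts, so they are not read as particular to the members.

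**Figure D5:**
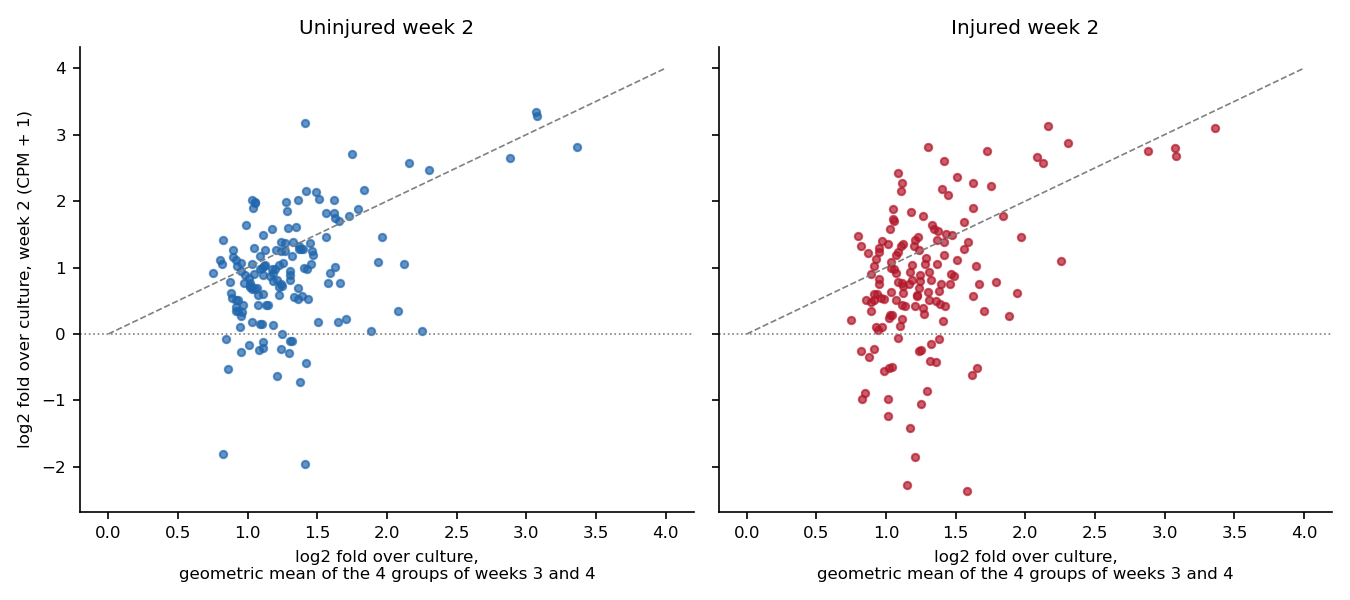
For the 150 members, log2 fold over culture at week 2 (y axis; uninjured left, injured right) is plotted against the log2 of the geometric mean fold of the 4 groups of weeks 3 and 4 (x axis), on CPM plus 1. The dashed line marks equality and the dotted line no difference from culture. Most points lie above the dotted line (88.7% in uninjured and 83.3% in injured week 2), with a wide vertical spread at low counts. Both axes share the culture libraries.

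Injured against uninjured cord at week 2 is the one comparison in which no library entered the choice of members. In a fit of those 8 libraries 74 members were tested, and 0 were called (edgeR, same test and threshold), with 0% of the 4992 genes tested called. Unadjusted p-values were under 0.05 for 2 members and 135 genes, and DESeq2 called 0 members and 4 genes. The fitted log2 fold changes had a median of -0.13 over the members and -0.02 over all genes tested, with 29 members higher and 45 lower in injured cord.

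That 0 members passed does not show equal levels at week 2. The approximate standard error of a member's log2 fold change, computed from the F statistic, had a median of 0.73. For 8 of the 74 members the estimate plus or minus 2 such standard errors lay inside 2-fold. Fitted differences reached 2-fold in 9 members, from -1.56 to 2.12 on the log2 scale. Injured over uninjured, the log2 difference was 0.16 ± 0.26 (SE) for ENSRNOG00000008015 and -0.64 ± 0.33 for ENSRNOG00000004147. It was 0.28 ± 0.31 for ENSRNOG00000008414. For each of these 3 genes edgeR's adjusted p was 1.0.

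The number called differed in a larger fit, which also tested more genes and took its scaling and spread from more libraries. When all 27 libraries other than injured week 3 replicate 3 were fitted together, all 150 members were tested and 10 were called at week 2, 4 higher and 6 lower in injured cord, and 3.37% of 14282 genes were called (edgeR adjusted p under 0.05). Which of these changes made the difference was not tested. The median coefficient of variation of the members was 67.3% and 87.1% in the uninjured and injured week 2 groups, against 14.5% to 17.9% in those of weeks 3 and 4.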

How the data were processed

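The authors deposited raw counts per gene for 28 libraries in 1 table, made by total RNA sequencing from very small inputs, per the labels' protocols. Per the submitters' processing notes the tools were STAR 2.5.1 (an aligner), featureCounts 1.5.1 (a counter), Trim Galore 0.4.1, StringTie 1.3.3, Picard and FastQC 0.11.5, with no order stated. Those notes name a mouse build, GRCm38, although the identifiers are rat, so the genome used is unsettled. For annotation release, strand setting, duplicates and shared reads the sources used here give nothing, and counts of near-identical or overlapping genes are uncertain.

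The members and tests were chosen with earlier results of these data known. Planned gene lists and names needed symbols and were not used. Identifiers given are the 2 with the largest ratio to culture and the 2 with the lowest injured to uninjured ratio. CPM used column totals; TMM and RLE factors were alternatives. For week 2, edgeR 4.0.16 (R 4.3.3) was run with TMM factors, filterByExpr and its quasi-likelihood test, after the script was tested on simulated data. DESeq2 1.42.0 and limma 3.58.1 (voom) were alternatives. Replicate numbers follow accession order and pair no samples.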

Additional observations from a re-analysis of the deposited data

Results flagged for a closer look

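In 45 groups of 4 values (the members' summed CPM, median CPM and number at 0 in each group, and the CPM of the 4 genes given by identifier), 5 held a library set apart, its gap to the nearest companion being most of the group's range (Dixon's ratio). Chance gives this in about 1 in 20 groups, or 2.25 here. The members' summed CPM was 12582 in injured week 4 replicate 2, and 14704 to 15103 in its companions. The members' median was 23.4 CPM in uninjured week 2 replicate 2, and 31.6 to 32.8 CPM in its companions. Injured week 3 replicate 3 had 51 members at 0, and its companions 0, equal values that fix the ratio at its highest. ENSRNOG00000004147 stood at 559 CPM in uninjured week 4 replicate 4, and at 735 to 749 CPM in its companions. ENSRNOG00000014264 stood at 114.3 CPM in injured week 2 replicate 3, and at 23.7 to 29.7 CPM in its companions.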

How the results depend on the processing

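Of the 150 members, 23 were lost under TMM-scaled totals, 29 under RLE, 49 with injured week 3 replicate 3 added, 3 with 0.5 CPM added to means and 47 with a floor of 20, and 136 to 148 were kept when each of the 19 libraries was left out in turn. A band of 1.5 in place of 2 kept 66, since it admits fewer genes. The median log2 injured to uninjured ratio at week 3 moved from -0.30 to -0.15 under RLE and to -0.22 with injured week 3 replicate 3 added, and ran from -0.34 to -0.25 without each library in turn. At week 4 it moved from -0.04 to 0.10 under TMM and to 0.15 under RLE. Without each library in turn it ran from -0.10 to 0.07, and among these it was above 0 only without injured week 4 replicate 2. Members without overlap at week 3 numbered 64, 52 below and 12 above (12% and 26.5% of the genes inside the band). With injured week 3 replicate 3 added, a library with 51 members at 0, they numbered 23, and no share was computed.

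Members called between injured and uninjured week 2 numbered 0 in the 8-library fit under RLE, upper quartile factors, DESeq2 and voom. They also numbered 0 with no low count filter and without each library in turn (0 to 0). They numbered 10 in the fit of 27 libraries, with 3.37% of genes called, and 7 in that of all 28 (edgeR). The latter fit called 0.82% of 13865 genes higher and 1.34% lower. Members called above culture at week 2 numbered 28 of 81 tested in uninjured cord (34.6%, against 17.2% of all genes). They numbered 17 of 150 without the low count filter (11.3%, below the 13.9% of all genes), 60 of 150 in the fit of 27 libraries (40%, against 19.96%) and 19 to 37 without each library in turn. In injured cord they numbered 29 of 81 (35.8%, against 17.1%), 21 of 150 without the filter (14%, against 11.2%), 52 of 150 in the fit of 27 libraries (34.7%, against 19.3%) and 16 to 36 without each library in turn, the lowest being 16 to 18 of 99 without a culture library (16.2% to 18.2%, against 13.7% to 14.2%). The cause was not tested. Choices added after the data were seen left 50 members at least 2-fold above culture in uninjured and 44 in injured week 2 under TMM, and 66 in injured week 2 without replicate 1. No paired analysis was possible because the labels carry no shared replicate numbers. The median member had 33 counts over the uninjured and 36.5 over the injured week 2 group, and values for scarcer members there are coarse.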
